A study of Mus musculus with 12 samples.

Results

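The 38 genes described here encode the enzymes that make cholesterol and fatty acids, the SREBP factors that switch those enzymes on, and, as a counterpart, the LXR receptors and genes of sterol export. They were listed by name as genes of these pathways, by a rule that uses no measured value, and are 38 of the 54232 genes in the deposited count table. The list was, however, chosen with earlier results of these data known. All 38 matched a row by symbol, and all 38 passed the filter on low counts, which left 15679 genes to test. They were grouped by role into mevalonate and isoprenoid synthesis (7 genes), the steps from squalene to cholesterol (11), SREBP factors and their control (5), sterol transfer (1), fatty acid synthesis, elongation and desaturation (9), and LXR receptors with export and receptor degradation (5).

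RNA was measured in mouse CD4+ naive T cells of spleen and pLN labelled wild type (WT) or Ddx55-KO (here KO). Ddx55 encodes a DEAD-box protein, a helicase that acts on RNA. Cells of each genotype were taken at 0, 8 and 24 h on plates coated with anti-CD3 at 5 ug/ml, which triggers the T cell receptor, together with anti-CD28 at 2.5 ug/ml, which triggers a costimulatory receptor. This gives 6 groups of 2 libraries. How the knockout was made, in which cells the deletion acts, the age of the mice and how many animals stand behind a library were not given in the sources used here, so p-values measure the spread between these libraries, which may be technical.

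Cells make cholesterol from acetyl-CoA through mevalonate, squalene and lanosterol, and make fatty acids from the same precursor by carboxylation, chain synthesis, elongation and desaturation. When sterol in the endoplasmic reticulum is low, SCAP carries the SREBP factors to the Golgi, where they are cut and released to activate the genes of both routes, and INSIG proteins hold SCAP back when sterol is high. LXR receptors respond to oxidised sterols and activate export transporters. T cells that leave rest to grow and divide need new membrane, and the SREBP route is known to rise on activation.

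Regulatory sequence was read from the RefSeq promoter table of build GRCm38.p6, as the 250 bases before each start site. It held 39 promoters of 30 members; Fads1, Fdft1, Fdps, Sqle, Scd1, Scd2, Stard4 and Abcg1 had no entry. Both strands were searched for TCACNCCAC (a core of the sterol regulatory element bound by SREBP), CCAAT (the box bound by NF-Y, a factor that works beside SREBP) and GGGCGG (the box bound by Sp1). TCACNCCAC lay in 1.05% of all 32851 promoters of the table and in 1 of 39 member promoters, that of Hmgcs1, where it began at position -137 from the start. CCAAT lay in 33.8% of all promoters and in 22 of the 39 (56.4%). It was found for all 9 of the squalene-to-cholesterol members in the table, for 5 of 6 mevalonate members, 4 of 5 SREBP members, 2 of 6 fatty acid members and 1 of 4 LXR and export members. GGGCGG lay in 32.7% of all promoters and in 27 of the 39 (69.2%). A match is a run of letters and not a shown binding site. The following sequences are shown because they contrast an early mevalonate enzyme, a mevalonate enzyme with 5 CCAAT boxes, a late sterol enzyme and a fatty acid enzyme, all lower in KO cells at 24 h, with an export gene that did not pass the test there. Each lies outside its gene body in the GENCODE annotation and is written 5' to 3' on the strand of the gene, with capitals for matches to the 3 motifs on either strand. In Fasn the run CCAATTGG is an overlap of CCAAT matches on both strands; no other printed matches share a base.
Hmgcs1 (chr13:119690101-119690350, plus strand): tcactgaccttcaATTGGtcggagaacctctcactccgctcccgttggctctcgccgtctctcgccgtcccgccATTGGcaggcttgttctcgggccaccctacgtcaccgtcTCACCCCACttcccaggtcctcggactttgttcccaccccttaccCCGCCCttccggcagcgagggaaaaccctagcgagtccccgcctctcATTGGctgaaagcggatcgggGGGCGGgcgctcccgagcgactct
Mvk (chr5:114444019-114444268, plus strand): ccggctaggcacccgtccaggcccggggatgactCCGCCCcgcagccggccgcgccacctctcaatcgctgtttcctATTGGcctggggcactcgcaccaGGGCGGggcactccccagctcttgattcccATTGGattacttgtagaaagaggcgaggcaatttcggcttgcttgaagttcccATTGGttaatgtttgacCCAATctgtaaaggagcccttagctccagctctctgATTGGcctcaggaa
Nsdhl (chrX:72918271-72918520, plus strand): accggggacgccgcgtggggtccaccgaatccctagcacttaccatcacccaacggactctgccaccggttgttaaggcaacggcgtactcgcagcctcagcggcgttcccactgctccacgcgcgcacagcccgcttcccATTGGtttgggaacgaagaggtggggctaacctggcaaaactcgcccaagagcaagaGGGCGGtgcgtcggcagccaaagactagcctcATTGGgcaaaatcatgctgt
Fasn (chr11:120824548-120824797, minus strand): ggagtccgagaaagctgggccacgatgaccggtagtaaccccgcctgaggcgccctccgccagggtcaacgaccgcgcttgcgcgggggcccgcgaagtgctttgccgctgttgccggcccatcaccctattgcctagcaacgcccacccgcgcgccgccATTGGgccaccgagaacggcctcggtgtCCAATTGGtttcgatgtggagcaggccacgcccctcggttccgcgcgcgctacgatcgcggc
Abca1 (chr4:53159896-53160145, minus strand): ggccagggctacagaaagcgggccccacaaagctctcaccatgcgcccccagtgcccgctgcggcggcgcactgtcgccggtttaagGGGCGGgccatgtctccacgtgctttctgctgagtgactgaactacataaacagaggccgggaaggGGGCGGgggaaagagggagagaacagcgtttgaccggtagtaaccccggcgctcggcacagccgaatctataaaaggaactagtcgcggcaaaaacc

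The libraries held 16810375 to 19126498 gene counts each. The targeted gene, Ddx55 (ENSMUSG00000029389, chr5:124552864-124569660), stood at 45.3 and 51.2 CPM (counts scaled to normalized library size) in the WT libraries at 0 h. It stood at 19.5 and 19.0 in KO. It read 68.7 and 64.1 against 18.0 and 17.1 at 8 h, and 52.9 and 55.2 against 14.7 and 14.4 at 24 h. Each KO library was below each WT library of its time, and at 24 h the log2 fold change was -1.89 ± 0.107 (SE; adjusted p = 5.5e-09). The KO libraries still held 268 to 378 counts of Ddx55, so its RNA was reduced and not absent, and which part of the gene was deleted was not given. All 10 markers of CD4 T cells had counts in every library and summed to 3200 to 6580 CPM. Markers of some other blood cells were higher in KO. The 8 basophil and mast cell genes summed to 40.4 and 18.1 CPM in WT and 306 and 797 in KO at 0 h. At 24 h they summed to 10.2 and 9.26 against 172 and 609. The 11 genes of granulocytes and their progenitors summed to 56.0 and 13.2 in WT and 511 and 512 in KO at 0 h, and to 0.593 and 0.433 against 22.2 and 87.3 at 24 h. Eosinophil genes summed to 18.5 and 3.13 in WT and 179 and 202 in KO at 0 h. Those of monocytes and macrophages summed to 23.9 and 15.7 against 82.6 and 26.3. CD8 T and NK cell sums were higher in KO at 0 h (47.9 and 29.3 against 19.0 and 19.7) and overlapped at 24 h. Erythroid sums overlapped at 0 h (273 and 82.0 in WT, 179 and 88.2 in KO). B cell sums were at most 6.32 CPM. The part of these other cells in the results was not tested. In bulk RNA fewer cells of a type and less RNA per cell cannot be told apart.

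A large share of the pathway was higher at 8 h than at 0 h in WT cells. No culture without stimulation was measured at 8 h or 24 h, so stimulation and time in culture cannot be told apart. Of the 38 members, 18 were higher and 10 lower at 8 h than at 0 h (edgeR's quasi-likelihood test, Benjamini-Hochberg adjusted p under 0.05 over all genes; 28.3% and 33.6% of all genes tested were called higher and lower). The median log2 fold change was 0.31 over the members and -0.15 over all genes. KO cells had 19 members higher and 11 lower (28.6% and 32.9% of all genes), with medians of 0.17 and -0.10.

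The early risers spanned both routes. Idi1, the isomerase that makes the reactive isoprene unit, stood at 4.13 and 4.03 CPM in the WT libraries at 0 h and at 48.2 and 46.5 at 8 h. In the KO libraries it went from 3.74 and 4.16 to 33.0 and 38.1. Its log2 rise was 3.53 ± 0.181 in WT (adjusted p = 3.8e-10) and 3.17 ± 0.179 in KO (adjusted p = 1.24e-09), and no 8 h library overlapped with any at 0 h. Of the 51-base words in Idi1 transcripts 25.2% also occur in transcripts of other annotated genes, chiefly predicted ones, so its level depends on how such reads were counted. Cyp51, the lanosterol demethylase, rose by 3.40 ± 0.175 in WT and 3.15 ± 0.174 in KO on the log2 scale (adjusted p = 3.22e-09 and 7.38e-09). Sqle, the squalene epoxidase, rose by 2.85 ± 0.129 and 2.38 ± 0.128 (adjusted p = 1.24e-10 and 7.17e-10). Hmgcs1, which joins acetoacetyl-CoA and acetyl-CoA into HMG-CoA, went from 16.6 and 26.9 CPM to 118 and 116 in WT and from 20.9 and 21.9 to 71.4 and 79.4 in KO. Its log2 rise was 2.43 ± 0.194 and 1.82 ± 0.191 (adjusted p = 4.77e-07 and 6.08e-06). The KO libraries of Hmgcs1 were below both WT libraries at 8 h, and the groups overlapped at 0 h. Hsd17b7, a keto-reductase of the sterol ring, rose by 2.02 ± 0.172 and 2.55 ± 0.18 (adjusted p = 7.68e-08 and 1.14e-08). The rest of the sterol route followed with smaller rises in WT: 1.76 for Msmo1, 1.5 for Lss, 1.41 for Fdft1, 1.40 for Fdps, 1.06 for Stard4 and 0.75 for Sc5d, each of them also called higher in KO. The KO call of Fdps was lost without KO replicate 2 of 0 h (0.78). Mvk, Pmvk and Nsdhl passed in neither genotype.

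In the fatty acid list the carboxylase and the synthase led. Acaca, the acetyl-CoA carboxylase that commits carbon to fatty acids, went from 35.5 and 40.4 CPM to 203 and 192 in WT and from 33.9 and 37.2 to 159 and 147 in KO. Fasn, the fatty acid synthase, went from 228 and 268 to 1080 and 1100 in WT and from 246 and 251 to 920 and 850 in KO. Both rose in both genotypes, by 2.38 ± 0.13 and 2.11 ± 0.129 for Acaca and by 2.13 ± 0.115 and 1.83 ± 0.114 for Fasn on the log2 scale (adjusted p of at most 3.19e-09). Acss2, which makes acetyl-CoA from acetate, did the opposite. It went from 77.3 and 92.5 CPM to 6.73 and 8.44 in WT and from 73.3 and 81.9 to 8.02 and 11.8 in KO, a log2 change of -3.49 ± 0.18 and -2.97 ± 0.174 (adjusted p = 6.02e-10 and 2.53e-09). Scd2, a stearoyl-CoA desaturase, also fell by 8 h, with log2 changes of -2.42 ± 0.186 in WT and -2.61 ± 0.187 in KO (adjusted p = 2.76e-07 and 1.75e-07). Elovl6 was lower at 8 h in both genotypes (-1.17 ± 0.296 and -2.44 ± 0.302), Acly was higher in both (0.52 ± 0.0996 and 0.31 ± 0.0994), and Fads1, Fads2 and Scd1 passed in neither. The WT call of Elovl6 was lost without WT replicate 2 of 8 h (-0.98), and the KO call of Acly without KO replicate 1 of 0 h (0.26).

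Other members of the same routes moved down by 8 h while their neighbours rose. Mvd, the decarboxylase that follows the mevalonate kinases, fell by 1.10 ± 0.155 in WT and 1.53 ± 0.157 in KO. Dhcr7, a late sterol reductase, fell by 1.15 ± 0.15 and 1.26 ± 0.151, and Tm7sf2, another sterol reductase, by 1.35 ± 0.221 and 1.30 ± 0.219. The adjusted p-values of these 3 genes were at most 0.000107. Acat2 was lower in both genotypes (-0.49 ± 0.173 and -0.91 ± 0.175), in WT with a call lost with DESeq2 and without replicate 2 of either time or any single library of 24 h. Ebp passed in KO (-0.88 ± 0.133) and not in WT (-0.25 ± 0.133). In the SREBP list Insig1, itself a known SREBP target, rose by 1.86 ± 0.172 and 1.85 ± 0.173 (adjusted p = 1.08e-06 and 1.35e-06), Scap by 0.83 ± 0.087 and 0.78 ± 0.087, and Srebf2, the factor that favours sterol genes, by 0.60 ± 0.0997 and 0.74 ± 0.1. Srebf1, the factor that favours fatty acid genes, had values of -0.11 ± 0.106 and 0.03 ± 0.106 and did not pass the test. Insig2 passed only in KO, at 0.41 ± 0.144 (adjusted p = 0.0213; lost without either KO library of 0 h or KO replicate 2 of 8 h) against 0.19 ± 0.144 in WT, and its change of the KO effect did not pass.

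The export genes fell together. Abcg1, a transporter of sterols out of the cell, went from 155 and 147 CPM at 0 h to 16.8 and 25.5 at 8 h in WT, and from 134 and 126 to 19.1 and 24.0 in KO. Its log2 change was -2.84 ± 0.159 and -2.59 ± 0.158 (adjusted p = 1.86e-09 and 5.07e-09). Abca1, the other main sterol transporter, changed by -3.40 ± 0.524 and -3.20 ± 0.507 (adjusted p = 0.000945 and 0.00114). Mylip, a ubiquitin ligase that degrades lipoprotein receptors, changed by -2.30 ± 0.114 and -1.71 ± 0.112 (adjusted p = 2.84e-10 and 5.57e-09). Nr1h2, which encodes LXR beta, rose by 0.31 ± 0.119 and 0.35 ± 0.119 (adjusted p = 0.034 and 0.0198), calls lost without replicate 2 of 0 h in either genotype, where the values fell to 0.18 in WT and 0.17 in KO. The WT call of Nr1h2 was also lost without either WT library of 8 h, and its KO call without KO replicate 1 of 8 h. Nr1h3, which encodes LXR alpha, stayed at 8 to 32 counts a library and passed in neither genotype.

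**Figure D1:**
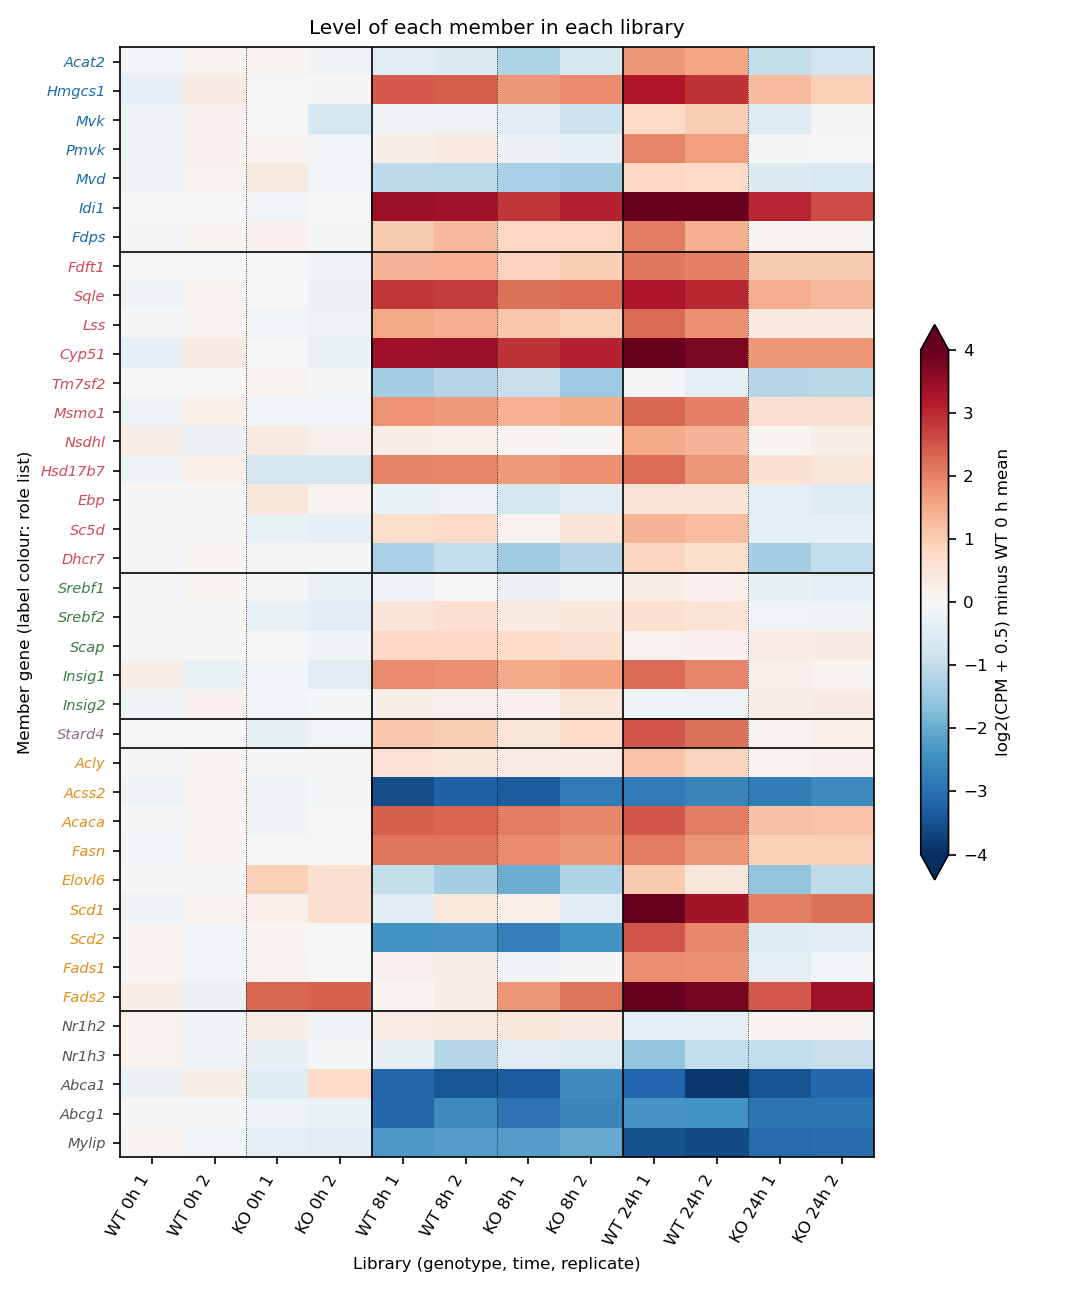
Level of each of the 38 members (rows, coloured by role list) in each of the 12 libraries (columns), as log2(CPM + 0.5) minus the mean of the WT libraries at 0 h; red is higher and blue lower. Idi1, Cyp51, Sqle, Hmgcs1, Acaca and Fasn are red at 8 h in both genotypes and paler in KO than in WT at 24 h, while Abca1, Abcg1 and Mylip at the bottom are blue in all libraries after 0 h.

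Before stimulation the members differed little between genotypes. At 0 h 1 member was higher and 2 were lower in KO (4.63% and 1.07% of all genes tested were called higher and lower). The median log2 fold change was -0.07 over the members and -0.03 over all genes. Of the members 7 had an unadjusted p under 0.05. Here and below, the share of all genes with an unadjusted p under 0.05 was not counted, so such counts have no background. The higher member was Fads2, a desaturase of polyunsaturated fatty acids, at 6 and 2 counts (0.354 and 0.12 CPM) in WT and 56 and 65 counts (3.08 and 3.26 CPM) in KO. Its log2 fold change was 3.70 ± 0.608 (adjusted p = 0.00321), and the call was lost without WT replicate 2 (adjusted p = 0.0549). The basophil, mast cell and granulocyte marker sums given above were also higher in KO at 0 h, and their part was not tested. Hsd17b7 was lower in KO, at 4.90 and 4.86 CPM against 6.91 and 9.33 (log2 -0.73 ± 0.189, adjusted p = 0.0336), and the call was lost without WT replicate 2, KO replicate 1 or KO replicate 2 at 0 h, without WT replicate 1 at 8 h, and with only the groups compared in the fit (adjusted p of 0.0501 to 0.341). Mylip was lower, at 84.5 and 81.8 against 121 and 104 CPM (-0.44 ± 0.107, adjusted p = 0.0257). It lost its call without WT replicate 1 or either KO library at 0 h, without either WT library or KO replicate 2 of 24 h, and with only the groups compared (adjusted p of 0.0503 to 0.244). Elovl6, an elongase, read 42.1 and 34.3 CPM in KO and 22.4 and 20.9 in WT without passing the test (0.82 ± 0.277, adjusted p = 0.144). Srebf2 read 246 and 217 in KO and 281 and 306 in WT, groups that did not overlap, with a value of -0.34 ± 0.0998 that did not pass (adjusted p = 0.0637).

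At 8 h most synthesis genes had KO values below WT, few of them past the threshold. Of the 38 members 29 had a value below 0 and 17 an unadjusted p under 0.05. The shares of all genes with either were not counted. The test called 2 members lower and 1 higher (0.746% and 1.9% of all genes). The median was -0.31 over the members and -0.001 over all genes. Sqle read 68.4 and 68.8 CPM in KO and 105 and 103 in WT (-0.60 ± 0.116, adjusted p = 0.0114). Fdft1, the squalene synthase, read 35.2 and 37.4 against 48.6 and 49.8 (-0.44 ± 0.1, adjusted p = 0.0317). In both genes, named because they passed that test, the KO libraries were below the WT libraries with no overlap. The call of Sqle was lost without either WT library or KO replicate 2 of 8 h, and that of Fdft1 when any single library of 8 h or 24 h was left out, or with only the groups compared (adjusted p of 0.0513 to 0.204). All 7 mevalonate members had values below 0, from -0.30 to -0.63, and 0 were called, while 4 had an unadjusted p under 0.05. Fads2 stayed higher in KO, at 1.98 and 2.76 CPM against 0.276 and 0.352 (2.89 ± 0.591, adjusted p = 0.0228), a call lost without either WT library or KO replicate 2 of that time. The same markers of other cells were higher in those KO libraries (123 and 389 CPM for basophil and mast cell genes, against at most 13.6 in WT), and their part was not tested.

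From 0 h to 8 h the KO effect itself did not move past the threshold for any member. By edgeR's test 0 of 38 members were called higher and 0 lower (0.261% and 0.733% of all genes), 8 had an unadjusted p under 0.05, and DESeq2 called 1 lower. The median change was -0.22 over the members and 0.03 over all genes.

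At 24 h the synthesis genes were lower in KO across the pathway. Of the 38 members 31 were called lower and 3 higher, where 20.7% and 17.9% of all genes tested were called lower and higher, and the median log2 fold change was -1.43 over the members and 0.02 over all genes. All 7 mevalonate members were lower (median -1.85), as were all 11 members from squalene to cholesterol (median -1.52), Stard4, 8 of 9 fatty acid members (median -1.52) and 3 of 5 SREBP members (median -0.54), against 1 of 5 LXR and export members (median 0.48). Leaving out KO replicate 2 at all 3 times changed the sign of 1 member, Acss2 (0.06 to -0.07), and leaving out KO replicate 1 changed no sign. KO replicate 2 had the higher basophil and mast cell marker sums at each time. The KO library left at 24 h still held 172 or 609 CPM of those markers, against 10.2 and 9.26 in WT. Neither fit can therefore tell their part, which was not tested.

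Among the mevalonate members Acat2, the thiolase that joins the acetyl-CoA units, read 68.3 and 61.7 CPM in WT and 10.2 and 11.6 in KO at 24 h. The KO libraries stood far below the WT libraries, at a log2 fold change of -2.57 ± 0.175 (adjusted p = 3.89e-08). Of Acat2's 51-base words 38.9% also occur in Acat3 or Tcp1, so reads could be split among these genes. Pmvk, the phosphomevalonate kinase, read 50.3 and 41.0 against 12.9 and 12.3 (-1.85 ± 0.153, adjusted p = 3.01e-07). Idi1 read 99.8 and 79.0 against 37.7 and 27.3 (-1.46 ± 0.149, adjusted p = 2.39e-06). Mvd read 47.7 and 45.5 against 18.1 and 17.3 (-1.40 ± 0.15, adjusted p = 3.94e-06). WT and KO libraries did not overlap in any of these genes. In this list and those below, such members were mostly named for a small p at 24 h, so a lack of overlap adds nothing to the test. The other 3 mevalonate members were lower by similar amounts: Hmgcs1 by a log2 value of -1.95 ± 0.185, Fdps, the farnesyl diphosphate synthase, by -1.94 ± 0.284, and Mvk, the mevalonate kinase, by -1.23 ± 0.234. Fdps had low levels (1.59 to 8.73 CPM in the 12 libraries), and 26.1% of its words occur in other annotated genes, so its level is uncertain too. For Hmgcs1 the share of such words was 11.5%, so its values carry that uncertainty as well.

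From squalene onward Sqle read 140 and 120 CPM in WT and 39.9 and 36.1 in KO (-1.77 ± 0.119, adjusted p = 3.42e-08). Sc5d, a sterol desaturase of the last steps, read 90.2 and 81.5 against 26.7 and 27.2 (-1.67 ± 0.122, adjusted p = 8.24e-08). Dhcr7 read 61.4 and 55.2 against 13.1 and 16.9 (-1.96 ± 0.15, adjusted p = 1.31e-07). Each KO library was below each WT library in these genes, and the same holds for Lss, the cyclase that makes lanosterol, at -1.69 ± 0.13 (adjusted p = 1.36e-07). Cyp51 had the largest difference of the list, -2.16 ± 0.161 (adjusted p = 5.25e-07). The other members ranged from -0.98 ± 0.219 for Tm7sf2 to -1.52 ± 0.136 for Msmo1, a methylsterol oxidase, with Nsdhl, the dehydrogenase of the same demethylation, at -1.29 ± 0.154, Hsd17b7 at -1.51 ± 0.165, Ebp, a sterol isomerase, at -1.02 ± 0.132 and Fdft1 at -1.02 ± 0.0997. A share of 9.82% of Tm7sf2's words lie in Vps51 and 26.3% of Fdft1's in Ctsb or a predicted gene, so both values carry that uncertainty.

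The SREBP list divided. Insig1 read 161 and 128 CPM in WT and 38 and 35.6 in KO at 24 h (-1.97 ± 0.171, adjusted p = 2.43e-06). Srebf2 read 454 and 426 against 274 and 259 (-0.72 ± 0.0999, adjusted p = 4.65e-05). Srebf1 read 172 and 162 against 118 and 111 (-0.54 ± 0.106, adjusted p = 0.000954). These 3 were lower in KO with no overlap between the groups. Insig2, the second anchor of SCAP, went the other way, at 18.8 and 20.4 CPM in KO and 14.1 and 13.9 in WT (0.49 ± 0.144, adjusted p = 0.0145). Its call was lost without either WT library or KO replicate 2 of 24 h (adjusted p of 0.0589 to 0.0878). Scap read 115 and 117 in WT and 127 and 130 in KO and did not pass (0.15 ± 0.0866, adjusted p = 0.184). Stard4, a carrier of cholesterol between membranes, read 135 and 110 against 25.5 and 27.0 CPM, which was 2.22 lower on the log2 scale (log2 -2.22 ± 0.129, adjusted p = 7.31e-09).

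In the fatty acid list Scd2 and Fads1, both desaturases, had the largest differences, followed by the elongase Elovl6. Scd2 read 593 and 391 CPM in WT and 73.5 and 77.2 in KO (-2.71 ± 0.178, adjusted p = 3.63e-07). The WT libraries lay far apart, yet both were above the KO libraries. Fads1, a desaturase of polyunsaturated fatty acids, read 53.6 and 52.0 against 11 and 13.1 (-2.13 ± 0.131, adjusted p = 1.29e-08). Acaca read 213 and 158 against 86.0 and 83.5 (-1.13 ± 0.123, adjusted p = 4.82e-06), and Acly, which makes acetyl-CoA from citrate, 559 and 471 against 273 and 283 (-0.89 ± 0.0998, adjusted p = 6.22e-06). A share of 30.3% of Acaca's words occurs in other annotated genes. Fasn had a difference of -0.96 ± 0.111 and Elovl6 of -2.11 ± 0.295. Fads2, higher in KO at both earlier times, was lower at 24 h, at 3.49 and 6.96 CPM against 20.4 and 9.63 (-1.52 ± 0.376, adjusted p = 0.00635). Scd1 read 2.23 and 2.59 against 12.6 and 6.33 (-1.97 ± 0.573, adjusted p = 0.0185). The calls of these 2 desaturases rested on single libraries: Fads2 lost it without WT replicate 1 or KO replicate 1 of 24 h, or with only the groups compared (adjusted p of 0.0617 to 0.129), and Scd1 without WT replicate 1 or either KO library (adjusted p of 0.0997 to 0.206). Acss2 read 11.7 and 13.0 CPM in WT and 11.8 and 14.0 in KO, overlapping groups with a difference of 0.06 ± 0.175 (adjusted p = 0.834).

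The LXR and export list did not move as a block. Nr1h2 was higher in KO, at 158 and 161 against 114 and 115 CPM (0.48 ± 0.12, adjusted p = 0.00544). Mylip was higher, at 12.7 and 13.3 against 9.64 and 8.93 (0.49 ± 0.126, adjusted p = 0.00695), though not without WT replicate 2 of 24 h (adjusted p = 0.0597). Abcg1 was lower, at 19.6 and 19.6 against 28.7 and 28.1 (-0.53 ± 0.158, adjusted p = 0.0161), a call lost when any single library of 24 h was left out (adjusted p of 0.069 to 0.091). Abca1, at 5.07 and 6.42 against 6.2 and 3.68 CPM, overlapped between the groups (0.22 ± 0.577, adjusted p = 0.811). Nr1h3 had 4 to 12 counts a library at 24 h and did not pass (0.61 ± 0.595, adjusted p = 0.451).

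**Figure D2:**
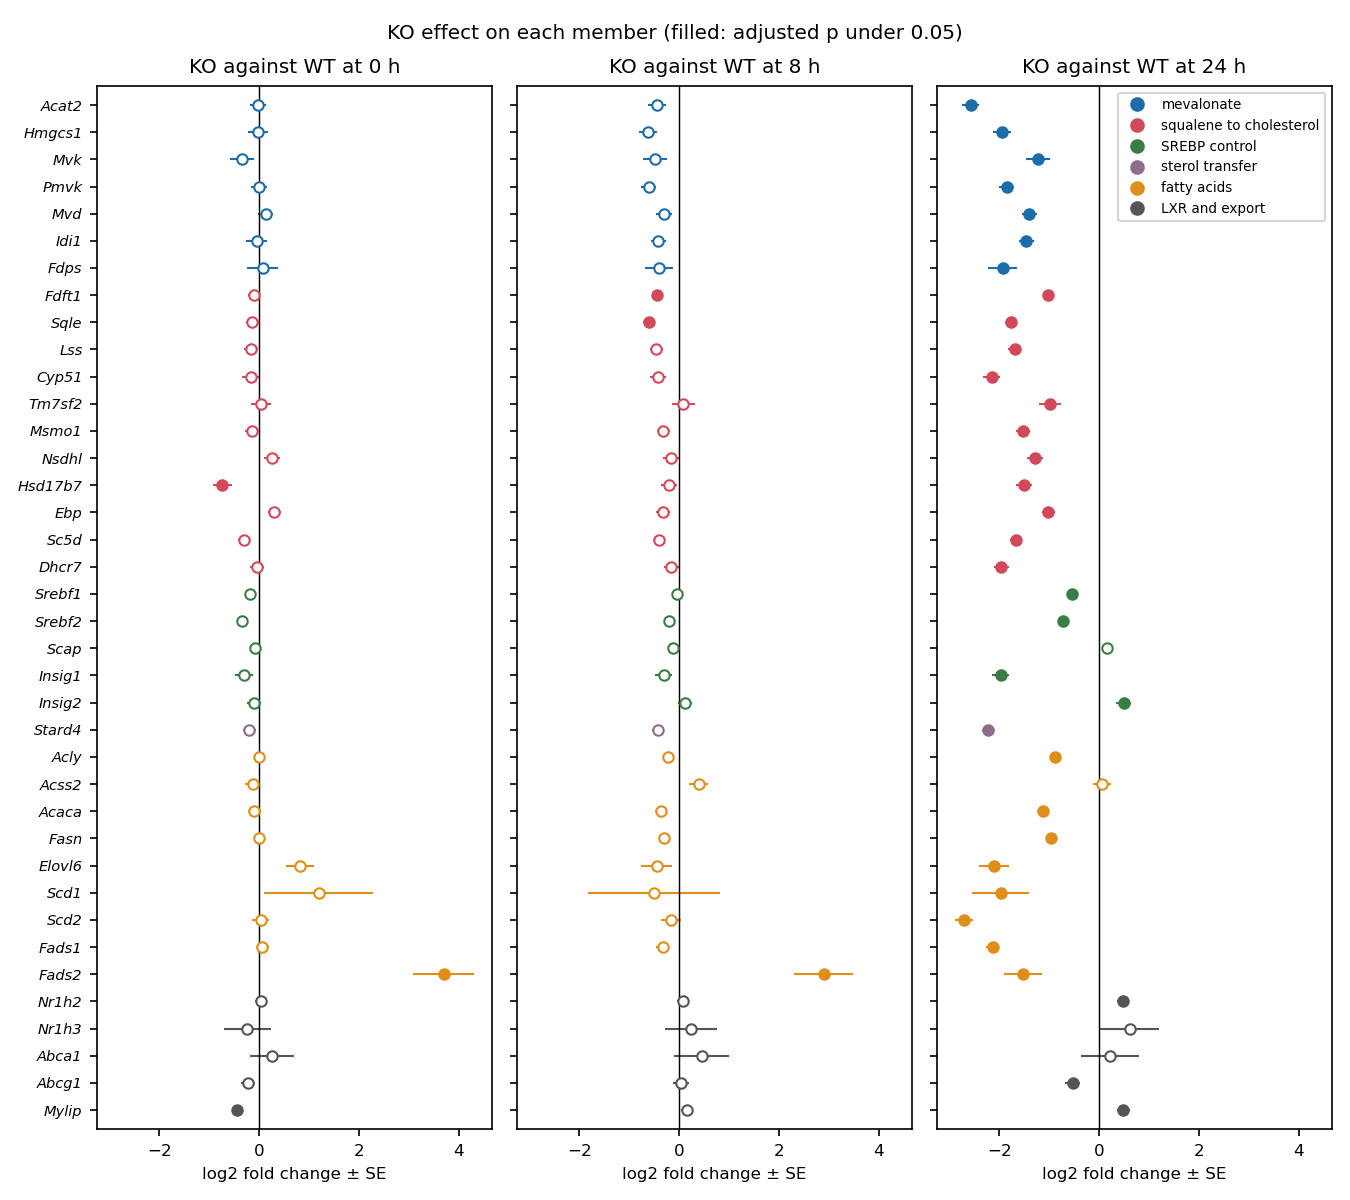
Log2 fold change of KO against WT (points, with SE bars) for each of the 38 members at 0, 8 and 24 h, coloured by role list; filled points have an adjusted p under 0.05. At 0 h and 8 h 3 members are filled at each time, and at 24 h 34 are filled, 31 of them left of 0.

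The difference at 24 h was larger than at 8 h for most members. The change of the KO effect between 8 h and 24 h, tested as an interaction, was lower for 28 of 38 members and higher for 0 (8.96% and 5.49% of all genes tested were called lower and higher), with a median of -1.11 over the members and 0.004 over all genes. It was lower for all 11 members from squalene to cholesterol, 6 of 7 mevalonate members, 7 of 9 fatty acid members, 3 of 5 SREBP members and Stard4, and 0 of 5 LXR and export members were called either way, 2 having an unadjusted p under 0.05. This test uses the same 24 h and 8 h libraries as the comparisons at those times. WT replicate 1 of 24 h carried the most weight: without it 19 members were called lower, and Acaca, Ebp, Elovl6, Fasn, Fdft1, Fdps, Srebf1, Srebf2 and Tm7sf2 were not.

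The members reached that difference by separate paths in each genotype. In WT from 8 h to 24 h 26 members rose and 4 fell (24% and 19.3% of all genes), with a median of 0.60 over the members and 0 over all genes. In KO 4 rose and 15 fell (18.9% and 15.6% of all genes), with medians of -0.17 and 0.02. The largest rises in WT were in genes that had been flat or down at 8 h. Scd2 went from 19.0 and 19.4 CPM at 8 h to 593 and 391 at 24 h in WT, a log2 rise of 4.68 ± 0.199 (adjusted p = 5.45e-09), and from 15.1 and 19.3 to 73.5 and 77.2 in KO, a rise of 2.13 ± 0.186 (adjusted p = 6.32e-06). Both genotypes thus rose with no overlap between times, and the change of the KO effect was -2.55 ± 0.258 (adjusted p = 5.48e-05). Acat2 rose by 2.17 ± 0.171 in WT and had a value of 0.04 ± 0.181 in KO. Dhcr7 rose by 1.95 ± 0.15 and had 0.14 ± 0.155, and Mvd rose by 1.91 ± 0.154 and by 0.80 ± 0.159. Fads1 rose by 1.68 ± 0.128 in WT and had -0.12 ± 0.134 in KO. Elovl6 rose by 1.96 ± 0.293 in WT, from 10.9 and 8.26 to 45.1 and 29.6 CPM, and stood at 5.14 and 8.89 and then 6.92 and 10.4 CPM in KO. Fads2 went from 0.276 and 0.352 CPM to 20.4 and 9.63 in WT and from 1.98 and 2.76 to 3.49 and 6.96 in KO. Scd1 had 0 and 7 counts at 8 h and 234 and 117 at 24 h in WT, and 5 and 0 and then 41 and 48 in KO. Its change of the KO effect did not pass (adjusted p = 0.598).

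In KO many of the genes that had risen early came down, though Idi1, Fdft1, Acly, Nr1h2 and Insig2 did not pass the test. Insig1 went from 94.1 and 101 CPM at 8 h to 38 and 35.6 at 24 h in KO, a log2 change of -1.41 ± 0.17 (adjusted p = 5.9e-05), and from 123 and 119 to 161 and 128 in WT (0.26 ± 0.163, adjusted p = 0.233). Cyp51 changed by -1.26 ± 0.158 in KO (adjusted p = 6.92e-05) and by 0.48 ± 0.153 in WT (adjusted p = 0.0242), the latter lost without either WT library of 8 h or WT replicate 1 of 24 h. Hsd17b7 went from 27.4 and 29.9 to 12.5 and 11.5 CPM in KO (-1.25 ± 0.165, adjusted p = 4.48e-05), while its WT libraries read 33.5 and 32.3 and then 39.7 and 28.7 and did not separate. Sqle fell by 0.85 ± 0.118, Msmo1 by 0.79 ± 0.136, Sc5d by 0.71 ± 0.122 and Lss by 0.66 ± 0.13 in KO, and each was called higher in WT. Of these WT rises that of Sqle (0.32) was lost with RLE factors, with DESeq2 and without either WT library of 8 h, WT replicate 1 of 24 h or either KO library of 24 h, and read 0.19 without WT replicate 1 of 24 h. That of Msmo1 (0.41) was lost without WT replicate 1 or 2 of 8 h or WT replicate 1 of 24 h (0.24), and that of Lss (0.58) without WT replicate 1 of 24 h (0.33). Fasn and Acaca fell by 0.89 ± 0.111 and 0.86 ± 0.123 in KO and had values of -0.23 ± 0.11 and -0.09 ± 0.121 in WT, neither past the threshold. Srebf2 fell by 0.54 ± 0.0997 in KO (adjusted p = 0.000755) and had -0.01 ± 0.0992 in WT. Idi1, Fdft1, Ebp, Nsdhl, Pmvk, Mvk and Tm7sf2 rose in WT and did not pass in KO, with KO values from -0.13 to 0.37; the change of the KO effect passed for each of them except Mvk (-0.75 ± 0.337, adjusted p = 0.167). Scap fell in both genotypes, by 0.67 ± 0.0866 in WT and 0.38 ± 0.0863 in KO, as did Mylip, by 1.30 ± 0.123 and 0.97 ± 0.119. Acss2 rose in WT by 0.71 ± 0.184 (a call lost without WT replicate 1 of 8 h or WT replicate 2 of 24 h), with 0.38 ± 0.179 in KO, and its change of the KO effect did not pass (adjusted p = 0.444). Hmgcs1 rose in WT (0.61 ± 0.177) and fell in KO (-0.70 ± 0.182), and so did Stard4 (1.32 ± 0.125 and -0.48 ± 0.129), with calls of Hmgcs1 and Stard4 in KO that were lost without KO replicate 2 of 8 h, or without KO replicate 2 (Hmgcs1) or 1 (Stard4) of 24 h. The WT call of Hmgcs1 was lost without either WT library of 8 h or WT replicate 1 of 24 h. Fdps had -0.88 ± 0.292 in KO (adjusted p = 0.0293), a call lost with DESeq2 and without any single KO library of 8 h or 24 h, and 0.65 ± 0.263 in WT. Acly, Srebf1 and Abcg1 rose in WT, by 0.51 ± 0.0992, 0.32 ± 0.105 and 0.43 ± 0.158, and Nr1h2 and Insig2 fell there, with values of -0.70 ± 0.12 and -0.40 ± 0.145. The calls of Abcg1, Srebf1 and Insig2 were not stable: Abcg1 lost its call with RLE factors, with DESeq2 and in 10 other settings and read 0.16 without WT replicate 1 of 8 h, Srebf1 lost it without WT replicate 1 of 8 h or either WT library of 24 h, and Insig2 without any single WT library of 8 h or 24 h. None of these 5 genes passed in KO, where their values lay between -0.30 and -0.03, and of them only Acly and Srebf1 passed for the change of the KO effect. Abca1 and Nr1h3 passed in neither genotype.

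**Figure D3:**
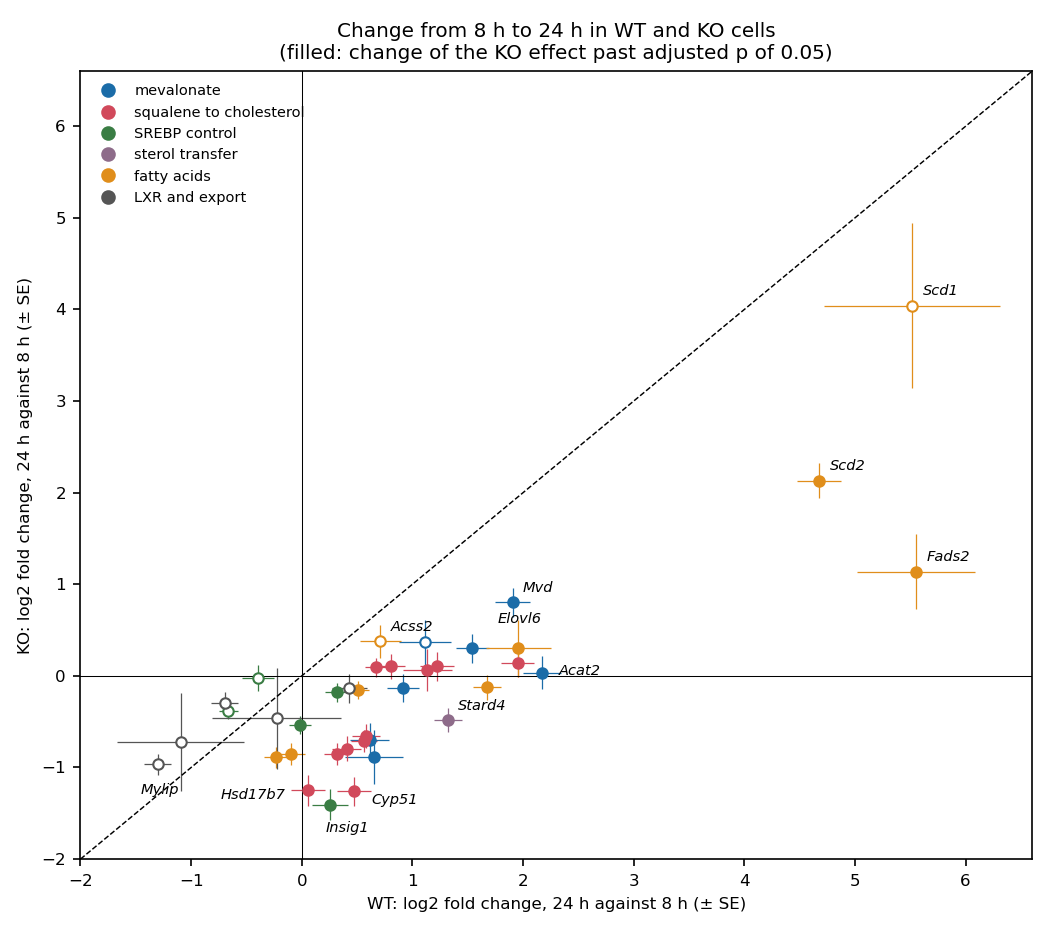
Log2 fold change from 8 h to 24 h in WT (horizontal) and KO (vertical) for each of the 38 members, with SE bars; the dashed line marks equal change, and filled points are those whose change of the KO effect passed an adjusted p of 0.05. The 28 filled points lie below the line; Scd2 and Fads2 stand far to the right, and Insig1, Cyp51 and Hsd17b7 are lowest, while Scd1 rests on few counts at 8 h.

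**Figure D4:**
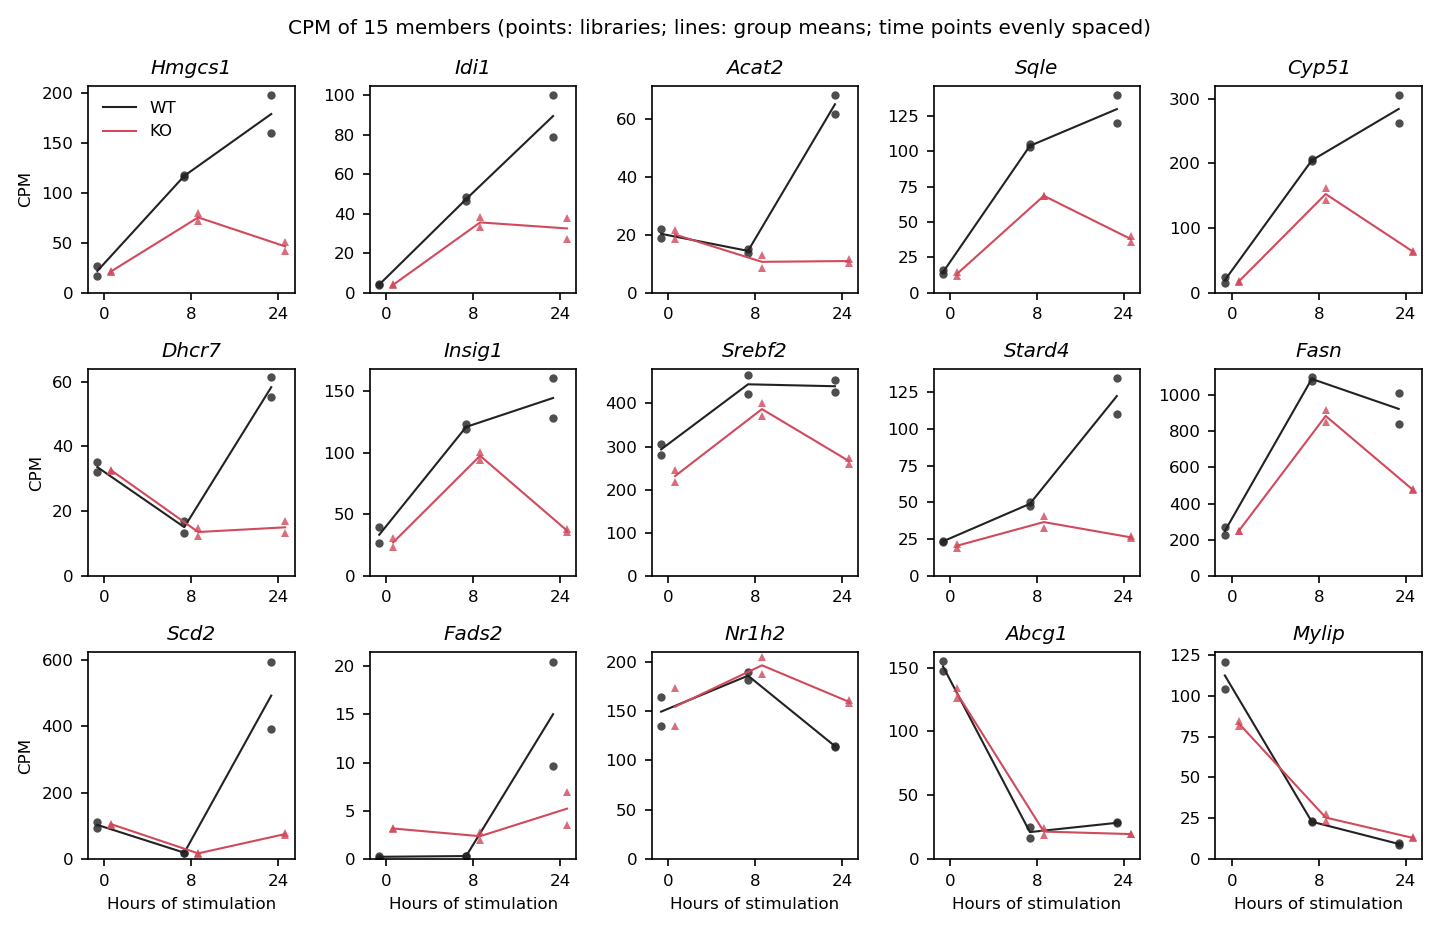
CPM of 15 members at 0, 8 and 24 h, with points for libraries and lines for group means, WT in black and KO in red; time points are evenly spaced. Hmgcs1, Sqle, Cyp51, Insig1 and Fasn rise in both genotypes by 8 h and come down in KO, Acat2, Dhcr7 and Scd2 rise late and mostly in WT, and Abcg1 and Mylip fall in both.

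As a median over each list, on the log2(CPM + 0.5) scale relative to the WT mean at 0 h, the squalene-to-cholesterol members stood at 1.37 and 1.40 in WT and 0.91 and 0.96 in KO at 8 h. They stood at 2.09 and 1.78 in WT and 0.38 and 0.39 in KO at 24 h. The mevalonate median was 1.95 and 1.58 in WT and 0.03 and -0.03 in KO at 24 h, over members that went both ways in KO: Idi1 was at 3.06 and 2.60 and Acat2 at -0.95 and -0.78. The fatty acid median was 2.03 and 1.83 in WT and 0.12 and 0.17 in KO at 24 h.

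Levels between genes were compared as mean CPM per kilobase of annotated exon. In WT at 0 h the highest members were Acly at 47.7, Nr1h2 at 44.7 and Srebf2 at 40.8. At 24 h the WT order was Acly at 97.5, Scd2 at 90.0, Fasn at 84.6, Cyp51 at 64.4 and Srebf2 at 61.2. In KO at 24 h it was Acly at 52.6, Nr1h2 at 47.6, Fasn at 43.6 and Srebf2 at 37.1, with Cyp51 at 14.4 and Scd2 at 13.8. The steps between neighbours in these orders were not tested.

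Related genes outside the membership were counted from lists of the same pathways. Of 48 such genes 46 were tested, and at 24 h 18 were lower and 7 higher in KO, with a median of -0.23, where 20.7% and 17.9% of all genes were called lower and higher with a median of 0.02; the share called higher was near that background. Among 11 other isoprenoid and sterol genes 7 were lower and 0 higher. Acat1, the mitochondrial thiolase, read 91.4 and 99.8 CPM in WT and 50.4 and 52.9 in KO (-0.89 ± 0.108, adjusted p = 1.35e-05). Among 11 other fatty acid synthesis and activation genes 8 were lower and 0 higher, with the smallest p for Acsl3, an acyl-CoA synthetase (-1.82 ± 0.168), and Elovl5, an elongase (-0.82 ± 0.0991). Among 6 SREBP proteases and degradation factors of the endoplasmic reticulum 3 were higher and 1 lower; Mbtps1, the protease that makes the first cut in SREBP, was higher by 0.36 ± 0.0914. Among 7 genes of sterol storage, uptake and lysosomal release 2 were higher and 1 lower. Plin2, a coat protein of lipid droplets, read 4.47 and 5.41 CPM in WT and 11 and 15.5 in KO (1.42 ± 0.21), and Npc2, a lysosomal sterol carrier, differed by 0.67 ± 0.128. Plin2 was also higher in KO at 0 h, by 1.14 ± 0.205, the only related gene called there. The basophil and granulocyte marker sums were higher in KO at both times too, and their part was not tested. Of 3 other LXR target genes Arl4c was higher (0.52 ± 0.139) and Lpcat3 lower (-0.46 ± 0.0937). Of 8 genes of fatty acid oxidation 1 was higher, Acadm (0.43 ± 0.0973), and 0 lower; Acadl had -0.24 ± 0.105 and did not pass.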

How the data were processed

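RNA of 12 libraries was depleted of ribosomal RNA and prepared with a stranded paired-end kit, per the labels' protocols. The submitters' processing notes name fastp 0.12.4, STAR 2.7.1a and mm10; their roles, the counter, its use of strand, the annotation and the handling of reads with several matches or UMIs were not given in the sources used here. The authors deposited raw counts per gene, with no normalization. The members and lists were chosen with earlier results of these data known. Symbols came from GENCODE M21 (GRCm38; 54079 of 54232 IDs matched). Genes were filtered with filterByExpr (count of 10, total of 15), which removed 38553 and kept 15679. Quasi-likelihood models (edgeR 4.0.16, limma 3.58.1, R 4.3.3, TMM, robust) gave each group its own mean, which left 6 degrees of freedom, so each fold change rests on a spread pooled over the 6 groups. There were 9 two-sided comparisons, adjusted by Benjamini-Hochberg over all genes, with a threshold of 0.05. The procedure was tested on simulated data. CPM are counts divided by the library size after its adjustment by TMM factors, so they differ slightly from counts over the plain library total. Library values are given for up to 4 members per role list with the smallest p at 24 h, members against their list's direction, SREBP factors and LXR receptors; for time courses, up to 3 per list with the largest change; of related lists, up to 2 genes each, of which some are not reported here. Other members are given by fold. Where a gene was named by p or size of change, a lack of overlap between its libraries adds no support. Alternatives were RLE factors, DESeq2 1.42.0, no filter, a mean CPM of at least 1, a replicate block, only the groups compared, and libraries left out. Shared sequence was counted as 51-base words of a gene's transcripts found in another gene's. The table of repeat loci was not used here.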

Additional observations from a re-analysis of the deposited data

Results flagged for a closer look

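For 28 members the difference between KO and WT cells changed from 8 h to 24 h (edgeR's interaction test, adjusted p under 0.05), and in each the later difference was the lower. The change on the log2 scale was -4.42 for Fads2, which was higher in KO at 8 h and lower at 24 h. It was -2.55 for Scd2, -2.14 for Acat2, -1.81 for Dhcr7, -1.8 for Fads1 and for Stard4, -1.73 for Cyp51, -1.66 for Insig1 and for Elovl6, and -1.54 for Fdps. It was -1.32 for Hmgcs1, -1.31 for Hsd17b7, -1.28 for Sc5d, -1.24 for Lss and for Pmvk, -1.2 for Msmo1, -1.17 for Sqle, -1.12 for Nsdhl, -1.1 for Mvd, -1.07 for Tm7sf2 and -1.05 for Idi1. The smallest changes were -0.76 for Acaca, -0.7 for Ebp, -0.67 for Acly, -0.66 for Fasn, -0.58 for Fdft1, -0.52 for Srebf2 and -0.5 for Srebf1. Without KO replicate 1 at all 3 times 24 members were called lower, and Hmgcs1 (adjusted p = 0.127), Acaca (0.101), Fdps (0.0606) and Tm7sf2 (0.251) lost their calls. Without KO replicate 2 at all 3 times 23 were called lower, and Hmgcs1 (adjusted p = 0.227), Srebf1 (0.106), Ebp (0.0789), Acaca (0.0695), Insig1 (0.0681) and Scd2 (0.058) lost theirs.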

How the results depend on the processing

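Of 3580 gene comparisons under alternatives, 3385 kept their direction and side of the threshold, 191 lost their call and 4 changed sign. These cover members called in the main fit, and every member for KO against WT at 24 h. Calls gained under an alternative are thus mostly outside this tally. Many of the settings also leave out a library that is not part of the comparison. There the fold change hardly moves, so the 3385 overstates how stable the results are. Acss2 at 24 h, not called (0.06), became -0.002 without WT replicate 1 of 24 h, -0.052 without KO replicate 2 of 24 h and -0.07 without KO replicate 2 at all 3 times, and Abca1 at 24 h (0.22) became -0.103 without WT replicate 2 of 24 h. With 1 library left out Acss2 ranged up to 0.183 and Abca1 up to 0.655. At 24 h the members lower in KO numbered 28 to 31 and those higher 1 to 3 with a library left out. The change of the KO effect between 8 h and 24 h was lower for 19 to 28 members with a library left out, and higher for 1, in place of 0, with only the groups compared or without KO replicate 1 at all 3 times. The counts at 0 h and 8 h were small and moved more. At 0 h the 1 member higher became 2 with DESeq2, no filter or only the groups compared, 3 without KO replicate 2 at all 3 times and 0 to 2 with a library left out. The 2 lower became 0 with only the groups compared, 1 without KO replicate 2 at all 3 times and 0 to 3 with a library left out. At 8 h the 1 higher became 2 without KO replicate 1 and 0 without KO replicate 2 at all 3 times, and 0 to 1 with a library left out. The 2 lower became 5 with DESeq2, 10 with no filter, 4 and 5 without KO replicate 1 or 2 at all 3 times, and 0 to 4 with a library left out. The change of the KO effect between 0 h and 8 h, with 0 calls, had 1 lower with DESeq2, 2 with no filter, 2 without KO replicate 2 at all 3 times and 0 to 1 with a library left out, and 1 higher without KO replicate 1 at all 3 times. The causes were not tested. Replicate numbers were not shown to pair the libraries: same-numbered WT and KO libraries had correlated deviations of 0.241, 0.139 and 0.0101 at 0, 8 and 24 h. Between times, same-numbered KO libraries had 0.111 to 0.288 and WT libraries 0.09 to 0.22, which the time comparisons do not use. With the replicate block the members lower at 8 h went from 2 to 4, the members lower in KO at 24 h against 8 h from 15 to 16, with Fads2 losing its rise there (adjusted p = 0.0613), and no other count of members changed by over 1.5 times. That rise of Fads2 in KO was also lost with RLE factors and with only the groups compared. It was lost as well without any single library of 0 h or 8 h, and without KO replicate 2 of 24 h, where it read 0.556. Where a left-out library leaves a group with 1 sample, that sample is assumed to vary like the other groups. Depth limits Scd1, Fads2, Fdps and Nr1h3, which had under 100 counts in most libraries.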
